A study of Mus musculus with 14 samples.

Results

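Interferon-stimulated genes were followed in the livers of high-fat-fed mice 24 h after an intravenous injection of human mesenchymal stem cells (MSCs). The set was a list of 40 genes grouped by function: 8 GTPases induced mainly by interferon-gamma (IFN-γ), the IFN-γ-induced transcription factors Irf1 and Irf8, and 30 classical targets of type I interferon. A gene was read from the array probe set annotated to it alone, and where a gene had several such probe sets the brightest was taken. By that rule 34 of the 40 genes were measured, among 19938 genes with a probe set of their own. The GTPases Gbp2, Gbp6, Igtp and Irgm2 and the ubiquitin-like modifier Isg15 lay on probe sets shared with other genes, and Ifi44 was not measured. This choice of probe sets did not use any measured difference. The genes themselves were chosen with earlier results of these data known, so counts over the set are descriptions.

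The mice were male C57BL/6 animals of 24 weeks of age, kept on high-fat chow for 20 weeks. Arrays covered 7 mice that received MSCs (HFM) and 7 that received saline (HFS), after 1 sample per group was damaged in transit. Both groups shared the strain, the diet and an injection. The hosts kept their own immune system and the cells came from another species. Each of the 14 mice gave 1 liver RNA sample and 1 Affymetrix mouse gene array, with no pooling. Values are log2 expression as deposited, so a difference of 1 unit is a doubling, and differences below are HFM minus HFS with their standard error (SE). Array medians ran from 4.24 to 4.35, and 23410 probe sets with a gene symbol were tested with limma.

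Interferons are signalling proteins that cells release on sensing viral nucleic acid or bacterial products. Type I interferons act through the receptor IFNAR and the transcription factor ISGF3, a complex that includes STAT2 and IRF9 and binds the interferon-stimulated response element (ISRE) in target promoters. IFN-γ, made mainly by natural killer (NK) and T cells, acts through a separate receptor and the gamma-activated site (GAS) in target promoters, and it also induces IRF1, which binds ISRE-like sequence. In liver both programs can run in hepatocytes, Kupffer cells, endothelium and infiltrating leukocytes.

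The 2 classes of response element are visible in the promoter sequence of the set, which is why a few promoters are shown. The RefSeq promoter windows used here span 250 bases before to 50 bases after each gene's start on GRCm38.p6, and 30 of the 40 genes had one. Searched on either strand, the ISRE core (GAAANNGAAA) was present in 18 of those 30 genes, or 60%, against 3.99% of 27025 genes in the whole table. The GAS motif (TTCNNNGAA) was present in 11 of 30, or 36.7%, against 9.55% of all genes. Both motifs stood in 7 of 30 genes (23.3%, against 0.61% of all genes), and in the windows of Bst2 and Ifitm3 the matches overlapped. All 6 GTPases with a window held the ISRE core and 3 of them also held GAS. Among 22 type I targets 12 held the ISRE core and 6 held GAS. Irf1 and Irf8 showed the opposite arrangement, with GAS in both and the ISRE core in neither.

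**Figure D1:**
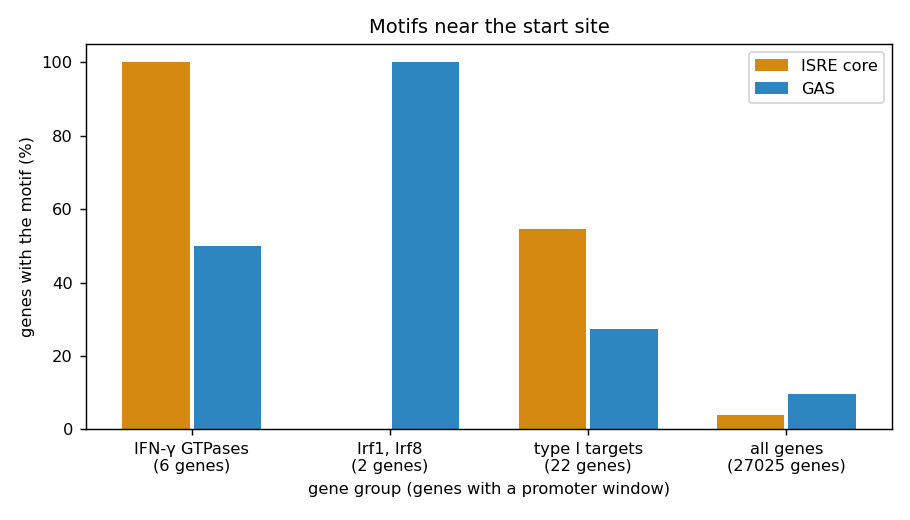
Share of genes (%, vertical axis) whose promoter window held the ISRE core (orange) or the GAS motif (blue), for the GTPases, Irf1 with Irf8, the type I targets and all genes. The ISRE core reached 100% in the GTPases and 54.55% in the type I targets against 3.99% of all genes, and GAS reached 100% for Irf1 and Irf8.

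The promoters below are those of the 3 GTPases and the 3 type I targets with an ISRE core before the start and the smallest p. Each is written 5′ to 3′ on the gene's own strand, with its matches in capitals, and TTTCNNTTTC is the ISRE core read on the other strand. In Gbp7 the first capitals are the GAS match and the second the ISRE core. In Irgm1 and Gbp3 the capitals are 2 overlapping ISRE cores.
Gbp7 (chr3:142530243-142530332, plus strand): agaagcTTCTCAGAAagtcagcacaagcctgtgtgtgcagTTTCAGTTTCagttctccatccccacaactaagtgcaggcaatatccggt
Irgm1 (chr11:48871421-48871490, minus strand): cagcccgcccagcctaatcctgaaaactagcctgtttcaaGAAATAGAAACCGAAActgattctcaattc
Gbp3 (chr3:142559959-142560043, plus strand): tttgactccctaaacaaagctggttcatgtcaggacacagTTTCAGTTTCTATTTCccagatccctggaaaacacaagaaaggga
Ifit3 (chr19:34583333-34583422, plus strand): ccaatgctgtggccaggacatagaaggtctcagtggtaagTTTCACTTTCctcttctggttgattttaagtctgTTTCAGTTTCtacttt
Oas3 (chr5:120777685-120777774, minus strand): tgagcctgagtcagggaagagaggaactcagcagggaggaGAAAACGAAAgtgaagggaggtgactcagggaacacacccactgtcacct
Stat2 (chr10:128270248-128270325, plus strand): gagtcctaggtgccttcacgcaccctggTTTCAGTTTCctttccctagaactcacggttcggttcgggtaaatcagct
The first ISRE core lay 53 to 44 bases before the start in Gbp7, 45 to 36 in Gbp3 and 30 to 21 in Irgm1. In the type I targets shown it lay 75 to 66 bases before the start in Oas3, 156 to 147 in Ifit3 and 222 to 213 in Stat2. A match is a description of the letters and not a measured binding site.

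Across the set the HFM mean lay above the HFS mean for 29 of 34 genes, or 85.3%, where 51.4% of all tested probe sets did so. The shifts were small: the median difference was 0.11 log2, against 0.00 over all probe sets, and the single differences ran from −0.25 (Oas1a) to 0.33 (Irf7). At an unadjusted p of 0.05 in limma, Gbp7, Irf7 and Xaf1 were higher in HFM, 3 of 34 or 8.82%, where 3.57% of all probe sets were called higher. None was called lower, where 2.90% of all probe sets were. In the exact permutation test p was 0.0892 for Gbp7, 0.0973 for Irf7 and 0.0670 for Xaf1, all above 0.05. Only Dtx3l, which limma did not call, had an exact permutation p under 0.05, at 0.0437. With the threshold of p under 0.01 and at least 1.2-fold, 0 of the 34 genes passed, where 0.696% of all probe sets did. A probe set that the member Gbp2 shares with Gbp2b, described below, did pass it. No member passed an adjusted p of 0.05, and neither did any probe set of the array (0% called); the smallest adjusted p of a member was 0.770, for Xaf1.

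The calls depended on single mice. Without HFM2, HFS3 or HFS4 in turn, 0 members were called higher, and without HFM3 or HFM4 only 1 was. Leaving out HFM7 instead gave 11. The number of members with the HFM mean above the HFS mean stayed between 25 and 30 over all settings tried. With the brighter probe sets it was 26 of the 28 members kept, and 34 were kept in the other settings. The members were read in the same 14 mice and tended to be high or low together in a mouse. Their number is therefore not a number of independent results.

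**Figure D2:**
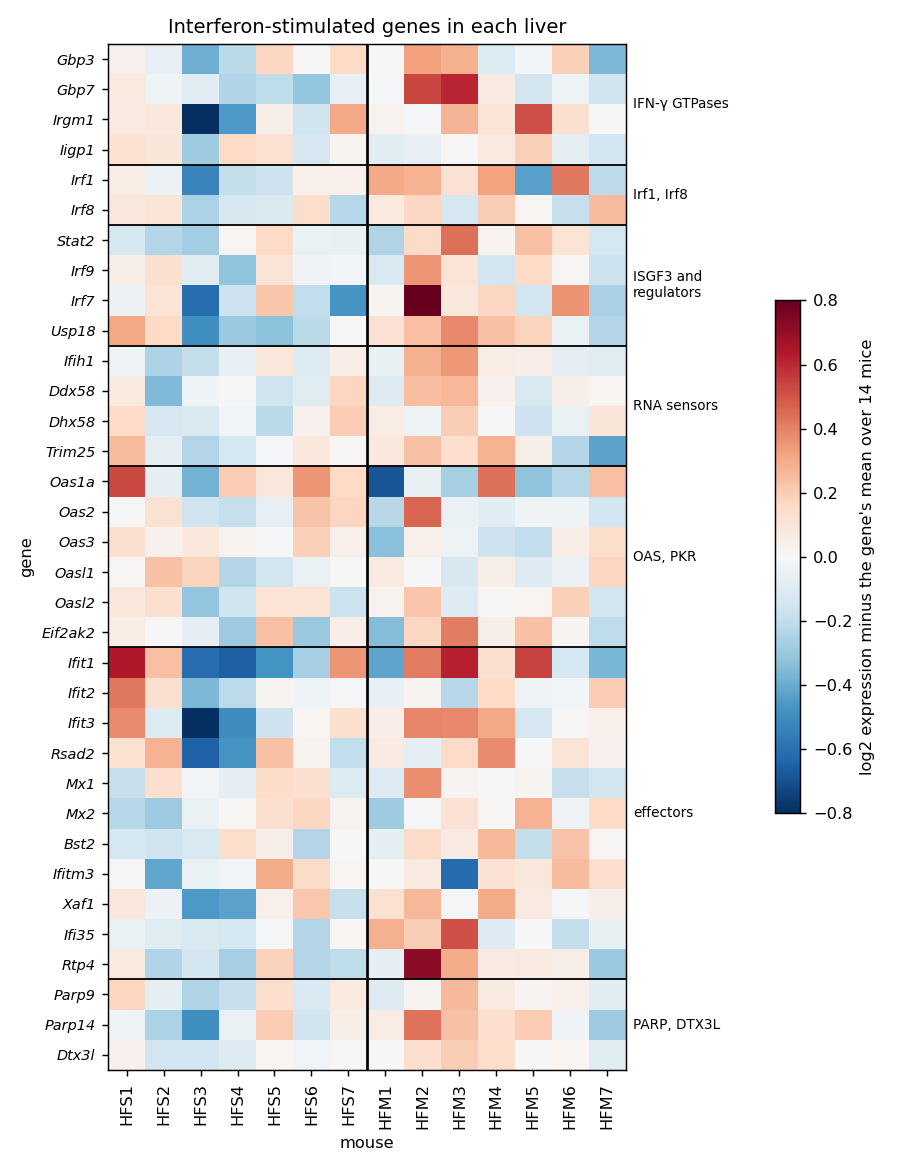
Expression of the 34 measured genes (rows, by role) in each of the 14 livers (columns, HFS then HFM), as log2 value minus the gene's mean over 14 mice. HFS3 and HFS4 are blue in most rows, and HFM2, HFM3 and HFM4 are red in most rows. The groups do not split cleanly: control HFS1 had 27 of the 34 genes above the 14-mouse median and HFM7 had 12.

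The spread between mice of a group was as large as the difference between the groups. The mean of the 34 genes per mouse, relative to the 14-mouse mean, differed by 0.11 between groups, with an SD of 0.11 in HFM and 0.13 in HFS. Of the 34 genes, HFM2 and HFM4 each had 28 above the median of the 14 mice, while HFM7 had 12. Among the controls HFS1 had 27 above it, HFS4 had 4 and HFS3 had 2. HFS3 was the lowest mouse of all for 16 of the 34 genes, against 5.72% of all probe sets, and it was the highest for none. Counts of members above the median overlapped between groups, from 12 to 28 in HFM and from 2 to 27 in HFS.

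The GTPases of the GBP and IRG families are cell-autonomous defence proteins that attack pathogen-containing vacuoles. Of the 4 with their own probe set, 3 had a higher mean in HFM, with a median difference of 0.17, and only Gbp7 was called. Gbp7, a large guanylate-binding protein, ran from 5.81 to 6.59 (median 5.96) in HFM and from 5.67 to 6.05 (median 5.89) in HFS. Its difference was 0.25 ± 0.12 (SE; unadjusted p = 0.0468, adjusted p = 0.772, exact permutation p = 0.0892). Only HFM2 and HFM3 stood above every control, and the other 5 HFM mice lay inside the control range. Without HFM3 the difference was 0.16, and the call was lost without any 1 of HFM2, HFM3, HFM4 or HFS3 to HFS7. Irgm1, an immunity-related GTPase that also regulates autophagy, had the largest GTPase difference at 0.29 ± 0.15 (unadjusted p = 0.0605, exact permutation p = 0.118). It ran from 6.20 to 6.73 (median 6.32) in HFM and from 5.32 to 6.52 (median 6.27) in HFS. The medians nearly met, and the gap between the means came with the low controls HFS3 and HFS4, at 5.32 and 5.76.

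Gbp3 ran from 4.61 to 5.29 (median 4.96) in HFM and from 4.57 to 5.13 (median 4.96) in HFS, a difference of 0.09 ± 0.11 (unadjusted p = 0.414, exact permutation p = 0.460). The groups overlapped almost fully. Iigp1, an effector GTPase that coats parasite vacuoles, went from 7.90 to 8.25 (median 7.99) in HFM and from 7.77 to 8.22 (median 8.15) in HFS. Its difference was −0.03 ± 0.08 (unadjusted p = 0.711, exact permutation p = 0.712), and 5 of 7 controls exceeded the HFM mean.

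The other 4 GTPases could be read only on shared probe sets, which cannot be assigned to 1 gene. The probe set of Gbp2 and Gbp2b ran from 4.58 to 5.38 in HFM and from 4.27 to 4.77 in HFS, and all 7 HFM mice exceeded the HFS mean of 4.56. Its difference of 0.36 ± 0.12 was the largest of the family (unadjusted p = 0.00739, adjusted p = 0.714, exact permutation p = 0.0251). That difference also passed the threshold of p under 0.01 and at least 1.2-fold. The separate probe set of Gbp2b alone differed by −0.01 ± 0.14. The probe set shared by Irgm2 and Igtp differed by 0.05 ± 0.11 (unadjusted p = 0.663), and the one shared by Gbp6 and 5 other guanylate-binding proteins by 0.18 ± 0.15 (unadjusted p = 0.241). In both of these HFS3 and HFS4 were again the lowest mice.

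**Figure D3:**
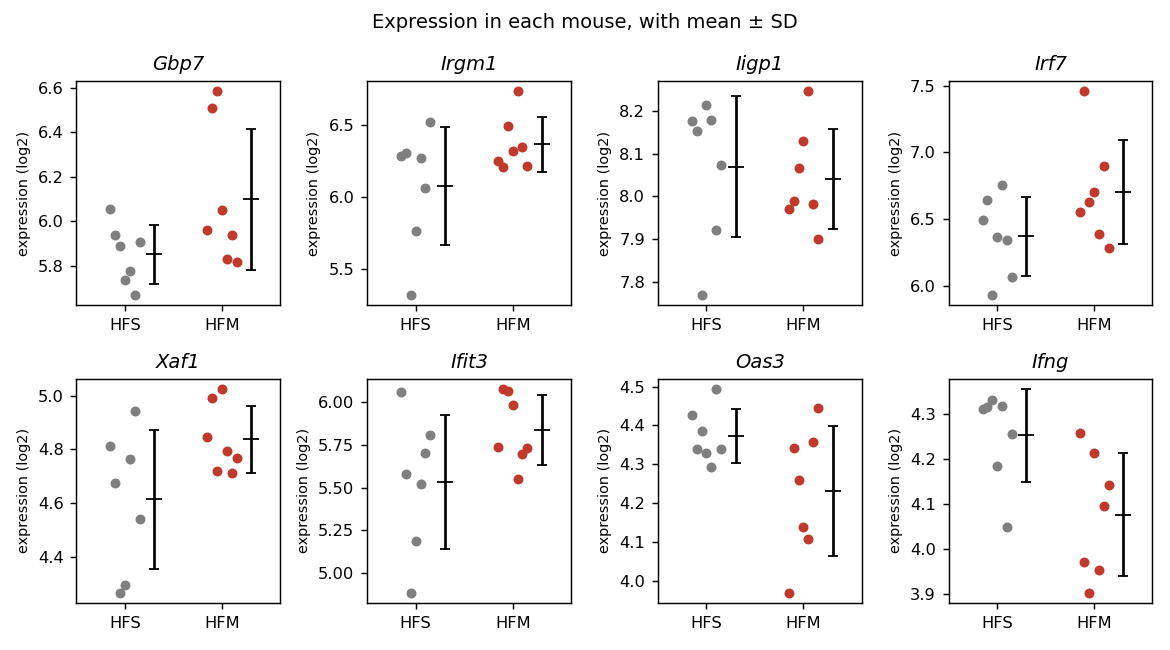
Log2 expression (vertical axes, each with its own range) of 8 genes in every HFS mouse (grey) and HFM mouse (red), with the group mean ± SD beside the points. The groups overlap in every panel. In Gbp7 and in Irf7 2 HFM mice stand above every control, and in Irf7 6 of 7 HFM mice lie above the HFS mean. In Irgm1, Xaf1 and Ifit3 the low HFS mean comes with 2 mice.

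Irf1, the immediate transcription factor of the IFN-γ response, ran from 5.24 to 6.10 (median 5.95) in HFM and from 5.15 to 5.73 (median 5.63) in HFS. The difference was 0.23 ± 0.13 (unadjusted p = 0.0867, exact permutation p = 0.140). Here 5 HFM mice lay above every control, while HFM5 and HFM7 lay below the control mean. Irf8, a factor of myeloid and dendritic cells, ran from 5.16 to 5.59 (median 5.41) in HFM and from 5.08 to 5.48 (median 5.22) in HFS. Its difference of 0.11 ± 0.09 did not pass the test (unadjusted p = 0.204, exact permutation p = 0.220).

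Among the type I targets 24 of 28 had a higher mean in HFM, with a median difference of 0.10, and Irf7 and Xaf1 were called. The ISGF3 subunits and regulators had the highest median of the roles, 0.21, with all 4 genes above 0. Irf7, the factor that amplifies interferon-alpha production, ran from 6.28 to 7.46 (median 6.63) in HFM and from 5.93 to 6.75 (median 6.37) in HFS. Its difference of 0.33 ± 0.16 was the largest of the 34 genes (unadjusted p = 0.0491, adjusted p = 0.772, exact permutation p = 0.0973). HFM2, at 7.46, stood apart from the other HFM mice, and without it the difference was 0.20 and no longer called. The call was likewise lost without HFM3, HFM4, HFM6, HFS1, HFS3, HFS4, HFS6 or HFS7. Usp18, the protease that removes ISG15 and damps IFNAR signalling, ran from 5.33 to 5.95 (median 5.75) in HFM and from 5.07 to 5.88 (median 5.35) in HFS. It differed by 0.25 ± 0.12 (unadjusted p = 0.0508, exact permutation p = 0.0915), with 6 HFM mice above the control mean. Stat2, whose promoter is shown above, ran from 6.61 to 7.29 (median 6.96) in HFM and from 6.57 to 7.01 (median 6.79) in HFS. The difference was 0.17 ± 0.10 (unadjusted p = 0.0952, exact permutation p = 0.131) and only 2 HFM mice exceeded all controls. Irf9, its DNA-binding partner, differed by 0.05 ± 0.09.

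The cytosolic RNA sensors had a median difference of 0.07, with all 4 above 0 and none called. Ifih1, which encodes MDA5, ran from 6.43 to 6.87 (median 6.57) in HFM and from 6.27 to 6.60 (median 6.45) in HFS. It differed by 0.15 ± 0.08 (unadjusted p = 0.0824, exact permutation p = 0.103), and 6 HFM mice lay above the control mean. Ddx58, which encodes RIG-I, ran from 6.39 to 6.78 (median 6.55) in HFM and from 6.16 to 6.69 (median 6.48) in HFS, a difference of 0.11 ± 0.08 (unadjusted p = 0.204, exact permutation p = 0.225). Dhx58, which encodes LGP2, ran from 5.02 to 5.39 (median 5.19) in HFM and from 4.97 to 5.39 (median 5.17) in HFS. With a difference of 0.03 ± 0.08 (unadjusted p = 0.708, exact permutation p = 0.696) its groups were nearly the same. Trim25, the ubiquitin ligase that acts on RIG-I, differed by 0.03 ± 0.10.

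The OAS enzymes and PKR, which sense double-stranded RNA and stop translation, were the only role with a median difference below 0. Here 3 of 6 had a higher mean in HFM and the median was −0.01. Oas3 ran from 3.97 to 4.44 (median 4.26) in HFM and from 4.29 to 4.49 (median 4.34) in HFS. The difference was −0.14 ± 0.07 (unadjusted p = 0.0658, adjusted p = 0.786, exact permutation p = 0.0624). Here 4 HFM mice lay below every control, and HFS3 was not low. Oas3 was called lower without HFM2, HFM6 or HFM7, and Oas1a without HFM4 or HFS3. Oas1a ran from 3.69 to 4.82 (median 4.15) in HFM and from 4.00 to 4.90 (median 4.54) in HFS, a difference of −0.25 ± 0.15 (unadjusted p = 0.117, exact permutation p = 0.185). A second probe set that Oas1a shares with Oas1g differed by 0.11 ± 0.08, so the 2 readings went in opposite directions and neither passed the test. Eif2ak2, which encodes PKR, ran from 5.29 to 6.05 (median 5.68) in HFM and from 5.34 to 5.87 (median 5.63) in HFS. It differed by 0.09 ± 0.11 (unadjusted p = 0.402, exact permutation p = 0.452). The differences of Oas2, Oasl1 and Oasl2 were −0.03, 0.00 and 0.06. Both Oas3 and Oas1a carry the ISRE core in their promoter windows, as do Ifit3 and Irgm1, whose differences were positive.

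The antiviral effectors had a median difference of 0.18, with 10 of 11 above 0. Xaf1, a pro-apoptotic interferon target, ran from 4.71 to 5.03 (median 4.79) in HFM and from 4.27 to 4.94 (median 4.68) in HFS. Its difference was 0.22 ± 0.10 (unadjusted p = 0.0379, adjusted p = 0.770, exact permutation p = 0.0670), with all 7 HFM mice above the control mean. The call was lost without HFM1, HFM2, HFM4, HFS3, HFS4 or HFS7, and without HFS3 the difference was 0.17. Ifit3, which binds viral RNA with its IFIT partners, ran from 5.55 to 6.08 (median 5.74) in HFM and from 4.89 to 6.06 (median 5.58) in HFS. It differed by 0.30 ± 0.14 (unadjusted p = 0.0502, exact permutation p = 0.101), and all 7 HFM mice exceeded the control mean, which HFS3 pulled down at 4.89. Ifi35 ran from 5.97 to 6.68 (median 6.16) in HFM and from 5.93 to 6.18 (median 6.07) in HFS, a difference of 0.18 ± 0.09 (unadjusted p = 0.0654, exact permutation p = 0.0973). Of its HFM mice 3 lay above all controls.

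The remaining effectors were not called. Ifit1 differed by 0.22 ± 0.21, the widest error of the set, with control HFS1 the highest mouse of all. Rtp4, a receptor-transporting protein, differed by 0.23 ± 0.12 and Rsad2, which encodes viperin, by 0.19 ± 0.13. Bst2, which encodes the virus-retaining protein tetherin, differed by 0.13 ± 0.08. Ifit2 differed by 0.01, Mx2 by 0.07 and Mx1 by −0.01, and all 3 lay at or below a mean of 3.19, the dimmest of the set. Ifitm3, which blocks viral entry, was the brightest at a mean of 10.6 and differed by 0.01 ± 0.12. The probe set that Isg15 shares with Gm9706 was at 3.82 in HFM and 3.92 in HFS, a difference of −0.09 ± 0.07, with none of the 7 HFM mice above the control mean.

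The ADP-ribosyltransferase group had a median difference of 0.11, with all 3 genes above 0. Parp14 ran from 5.89 to 6.61 (median 6.31) in HFM and from 5.69 to 6.39 (median 6.13) in HFS, a difference of 0.21 ± 0.11 (unadjusted p = 0.0679, exact permutation p = 0.110). Dtx3l, the ubiquitin ligase that pairs with Parp9, ran from 6.96 to 7.25 (median 7.07) in HFM and from 6.90 to 7.09 (median 7.03) in HFS. Its difference of 0.11 ± 0.06 had an unadjusted limma p of 0.0881 and an exact permutation p of 0.0437. Parp9 ran from 6.36 to 6.73 (median 6.49) in HFM and from 6.23 to 6.64 (median 6.39) in HFS and differed by 0.07 ± 0.08 (unadjusted p = 0.404, exact permutation p = 0.399).

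**Figure D4:**
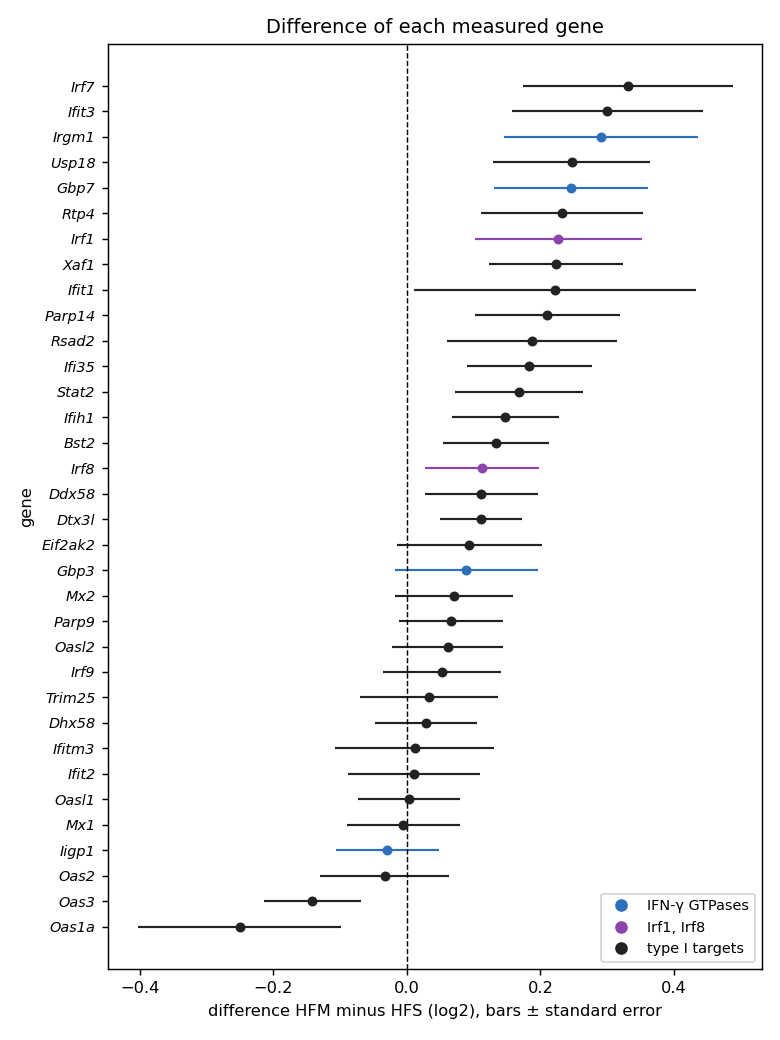
Difference HFM minus HFS (log2, horizontal axis) of each of the 34 measured genes, with bars of ± 1 SE, for the GTPases (blue), Irf1 and Irf8 (purple) and the type I targets (black). The points run from −0.25 for Oas1a to 0.33 for Irf7; 29 lie right of 0, and the GTPases are spread among the type I targets.

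Set against each other, the GTPases and the type I targets gave similar group differences. The mean of the 4 GTPases per mouse, relative to the 14-mouse mean, was 0.07 ± 0.15 (SD, n = 7) in HFM and −0.07 ± 0.19 (SD, n = 7) in HFS. The mean of the 28 type I targets was 0.05 ± 0.11 (SD, n = 7) and −0.05 ± 0.12 (SD, n = 7). Within a mouse, GTPases minus type I targets came to between −0.10 and 0.16 in HFM and between −0.17 and 0.10 in HFS. These ranges overlap, and the group means of that within-mouse gap differed by 0.05, less than the SD of 0.10 in either group. HFS3 was the lowest mouse on both scales, at −0.42 for GTPases and −0.25 for type I targets. The highest mouse was HFM3 for GTPases, at 0.29, and HFM2 for type I targets, at 0.23. By motif the medians were also close. The 14 measured genes with an ISRE core had a median difference of 0.14, and the 11 whose windows lacked it had a median of 0.11. The 9 with GAS had a median of 0.11 and the 16 without it a median of 0.13.

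Upstream, none of the 13 interferon transcripts with a probe set of their own was called higher in HFM. Ifng, which encodes IFN-γ, ran from 3.90 to 4.26 (median 4.10) in HFM and from 4.05 to 4.33 (median 4.31) in HFS. It differed by −0.18 ± 0.07 (unadjusted p = 0.0221, adjusted p = 0.768, exact permutation p = 0.0227), and 3 HFM mice lay below every control. Its control values lay close together in HFS1, HFS2, HFS3 and HFS5, at 4.31, 4.31, 4.33 and 4.32. Ifnb1, which encodes interferon-beta, ran from 3.20 to 3.58 (median 3.37) in HFM and from 3.14 to 3.65 (median 3.33) in HFS, a difference of 0.01 ± 0.08. Of 13 interferon ligands measured, 4 had a higher mean in HFM, with a median of −0.03. The largest difference was that of Ifnl2, −0.28 ± 0.16 (limma, unadjusted p = 0.0947), on a probe set with a mean of 6.57. Ifna1 and Ifnl3 lay only on shared probe sets and were not read. IFNL3 is among the genes that the paper lists as differentially expressed. No detection call was available, so for the dim ligand probe sets, such as those of Ifng and Ifnb1, a low level cannot be told apart from absence. Among the 4 cytokines that induce IFN-γ, Il12b, a subunit of IL-12, ran from 3.38 to 3.76 (median 3.54) in HFM and from 3.56 to 3.95 (median 3.67) in HFS. It differed by −0.18 ± 0.07 (unadjusted p = 0.0198), with 5 HFM mice below every control, and missed the threshold without HFS6. The Ifng call held in all 22 alternatives run. Il12a, Il15 and Il18 did not pass the test, at −0.01, 0.11 and 0.30.

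None of the 6 interferon receptor genes was called. Ifnar1 and Ifnar2, the type I receptor chains, differed by 0.02 ± 0.08 and −0.004 ± 0.08. Ifngr1 and Ifngr2, the IFN-γ receptor chains, differed by 0.10 ± 0.11 and 0.09 ± 0.09. The type III receptor chains Ifnlr1 and Il10rb differed by −0.08 ± 0.11 and 0.18 ± 0.14. Of 6 JAK and IRF genes measured, Irf2, an IRF family member that opposes IRF1 at ISRE sequence, was called higher. It ran from 6.96 to 7.64 (median 7.60) in HFM and from 7.02 to 7.37 (median 7.31) in HFS, and differed by 0.23 ± 0.10 (unadjusted p = 0.0271). There 6 HFM mice lay above every control and HFM5 lay below them all. The call was lost without HFM1, HFM2, HFM3, HFM6, HFS2 or HFS4. The 9 negative regulators, of the SOCS, PIAS and phosphatase families, had a median of 0.04, with 6 above 0 and none called. All 9 measured sensors and adaptors upstream of interferon had a higher mean in HFM (median 0.13), and Tlr4, the lipopolysaccharide receptor, was called at 0.16 ± 0.08 (unadjusted p = 0.0470). That call was kept in 12 of 22 alternatives, and without HFM1 the difference was 0.12. The Tlr4 probe set was dim, at a mean of 2.98, so a low level cannot be told apart from absence.

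Interferon targets outside the 40 genes were read the same way, from lists grouped by function. The lists were written with earlier results of these data known, and the count of further type I targets was chosen after seeing the data. Counts over these lists are therefore descriptions. Of 32 further type I targets measured, 30 had a higher mean in HFM, the median difference was 0.14, and 8 or 25.0% were called higher, where 3.57% of all probe sets were. The largest was Ly6e, a membrane protein of the LY6 family, which ran from 9.41 to 9.97 (median 9.61) in HFM and from 8.95 to 9.997 (median 9.29) in HFS. It differed by 0.37 ± 0.14 (unadjusted p = 0.0134, adjusted p = 0.759). Its highest mouse was control HFS5, so no HFM mouse stood above all controls. Parp12 differed by 0.29 ± 0.11 (unadjusted p = 0.0191) and Lgals3bp, a secreted glycoprotein, by 0.27 ± 0.10 (unadjusted p = 0.0108), and in each 5 HFM mice exceeded every control. The other 5 were Sp100 at 0.24 and Pml at 0.17, both of nuclear bodies, and Parp10 at 0.21, Rnf213 at 0.20 and Znfx1 at 0.15. Ly6e, Parp12 and Lgals3bp stayed called in all 23 alternatives. The count of 8 came to 4 without HFM2, 3 without HFM3, and 5 without HFS2 or HFS4. Of 14 further IFN-γ targets measured, 7 had a higher mean in HFM, with a median of 0.01. The exception was Cxcl9, the T cell chemokine induced by IFN-γ, at 6.11 to 7.07 (median 6.71) in HFM and 5.46 to 6.65 (median 5.94) in HFS. It differed by 0.62 ± 0.17 (unadjusted p = 0.00147, adjusted p = 0.714), with 4 HFM mice above every control, and was called in all 23 alternatives. The related Cxcl10 and Cxcl11 differed by 0.16 and 0.02, and Nos2, inducible nitric oxide synthase, by −0.19, and none of these passed the test.

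Markers of cells that carry or make interferon signals were set beside these values, and their part in the differences was not tested. In whole liver, a change in the number of cells of a type and a change in RNA per cell cannot be told apart. All 17 Kupffer cell and macrophage markers had a higher mean in HFM, with a median difference of 0.28, and 5 were called (Mpeg1, Cd5l, C1qb, Cd68 and Marco). Their mean per mouse ran from −0.21 to 0.67 in HFM and from −0.46 to 0.45 in HFS. The mouse highest for them was HFM2, which was highest for 9 of the 34 interferon-stimulated genes, as was HFM3. Over all probe sets HFM2 was highest for 10.74% and HFM3 for 18.56%. HFM3 was also lowest for 14.65% of all probe sets, so its array was often extreme in either direction. HFS3 and HFS4 stood at −0.29 and −0.28, close to HFS1 at −0.31 and HFS2 at −0.26, which had 27 and 14 of the 34 genes above the median. HFM4 had 28 of 34 genes above the median with macrophage markers at −0.06. HFM7, HFS5 and HFM3 went the same way on both scales, with 12, 20 and 24 genes above the median and these markers at −0.12, 0.45 and 0.22. HFS7 and HFS6 went opposite ways, with 19 and 12 genes above the median and markers at −0.46 and 0.18. HFM1, HFM5 and HFM6 had 14, 17 and 17 genes above the median, with markers at −0.001, −0.21 and 0.47. All 8 neutrophil markers had a higher mean in HFM, with a median difference of 0.24, and their mean per mouse was 1.41 in HFM2 and between −0.20 and 0.02 in every other HFM mouse. The chemokine receptor Cxcr2 was the 1 called, at 0.23 ± 0.10 (unadjusted p = 0.0283), with 4 HFM mice above every control. Its probe set was dim, at a mean of 2.78, so a low level cannot be told apart from absence. Of 8 sinusoidal endothelial markers 5 had a higher mean in HFM, with a median of 0.10, and the scavenger receptor Stab1 was called at 0.18 ± 0.07 (unadjusted p = 0.0206), with 5 HFM mice above every control. The 7 stellate cell markers had a median of 0.20, with Colec11 and Pdgfrb called higher. NK and T cell markers had a median of 0.01 and plasmacytoid dendritic cell markers, of the main type I interferon producers, a median of −0.05. Hepatocyte markers, at a median of 0.03, ran from mean levels of 8.81 to 13.5.

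**Figure D5:**
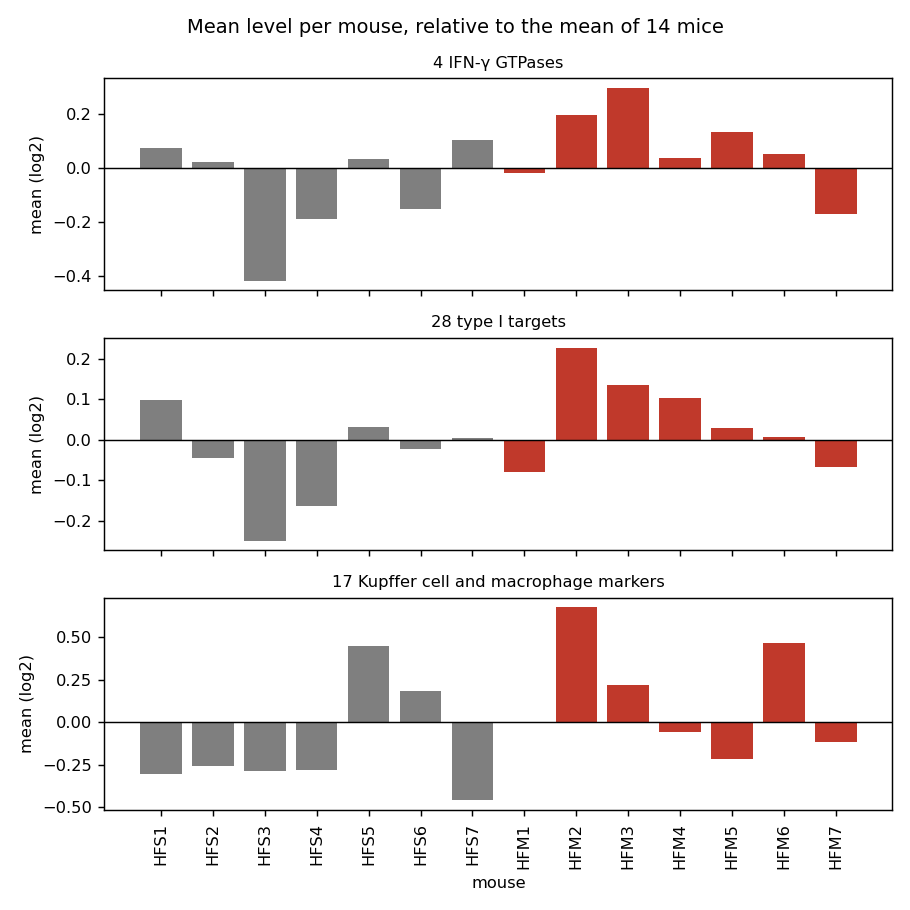
Mean log2 level in each mouse relative to the mean of 14 mice, for the 4 GTPases (top), the 28 type I targets (middle) and 17 macrophage markers (bottom), with HFS in grey and HFM in red. HFS3 is lowest in the upper panels at −0.42 and −0.25, whereas HFS7 is lowest for macrophage markers at −0.46 and HFM2 highest at 0.67.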

How the data were processed

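Total RNA of flash-frozen liver was hybridized to 1 Affymetrix mouse gene array per mouse. The authors used Expression Console to summarize probe sets and normalize arrays to one another, and deposited log2 values. RMA is named for this step in the labels and PLIER in the paper, with versions, annotation release and genome build not given in the sources used here. Replicates are separate mice, with no scan date or litter stated. The number of arrays limits the precision.

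Of 35556 probe sets, the 23410 that carry a gene symbol were tested (12146 without one were left out), and 0 value columns were unused. Differences came from limma 3.58.1 (lmFit and eBayes, no covariate) in R 4.3.3 with Benjamini-Hochberg adjustment over all tested probe sets. Exact permutation tests were two-sided over 3432 assignments, with a smallest p of 0.000583. A count of calls used an unadjusted p under 0.05 because none passed after adjustment, and the stricter filter took the p and fold thresholds of the study's methods without their Bonferroni correction. The test was checked on simulated data. The genes, lists and thresholds were chosen with earlier results of these data known, so counts over a list are descriptions.

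Genes given in full were the GTPases, Irf1, Irf8 and the 3 of smallest p in each type I role. From the pathway lists, genes past an unadjusted p of 0.05, Ifng, Ifnb1 and the receptors were named (1 further item is not reported here), and others named were chosen after their values were seen. Alternatives were a replicate block, quantile normalization, median centring, array weights, the brighter probe sets, an unmoderated test, a prior with trend and robust settings, all probe sets, averaging the probe sets of 1 gene and each mouse left out. Shared GTPase probe sets and the count of further type I targets were chosen after seeing the data. Promoters were read from a RefSeq table, and no member of chromosome 18 is shown.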

Additional observations from a re-analysis of the deposited data

Results flagged for a closer look

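In a few genes 1 mouse lay far from the other 6 of its group, its gap to the nearest mouse being most of the group's range. Among the named genes this held for Irf1 in HFS3 (5.15, next mouse 5.48), Oas2 in HFM2 (5.41, next 4.92), Mx1 in HFM2 (3.42, next 3.07), and Ifitm3 in HFM3 (10.01, next 10.62). The same was seen for Ifnlr1 in HFM3 (3.51, next 4.05) and Irf2 in HFM5 (6.96, next 7.42). These were 6 of 108 groups examined, and chance marks about 1 in 20. HFM2 and HFM3 each appear 2 times.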

How the results depend on the processing

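The count of members called higher, 3 (1 GTPase, 2 type I targets), came to 1 (0 and 1) after quantile normalization, with the brighter probe sets (28 members kept) and over all probe sets, where the call was Xaf1, and with an unmoderated test, where it was Dtx3l and all 3 were lost. It came to 7 (2 and 5) with the median of each array subtracted, which moved the median of all probe sets to 0.03. Array medians averaged 4.28 in HFM and 4.31 in HFS, so subtracting them raised every difference by 0.027. Why the array medians differed was not tested. With array weights the GTPases called came to 0 and 1 member, Oas3, was called lower, and with the shared GTPase probe sets 2 GTPase readings were called. Leaving out each mouse gave 0 to 11 members higher, 0 to 1 lower, 0 to 2 GTPases, 0 to 9 type I targets and 3 to 11 further type I targets, against 8. With the mouse number as a replicate block the same 3 members were called and no median moved, but the numbers do not pair the mice: same-numbered mice correlated at −0.203 to 0.139 and 0 of 7 pairs matched best by number. Median differences stayed at 0.10 to 0.22 for GTPases and 0.08 to 0.13 for type I targets over all alternatives. Differences near 0 changed sign: Ifnar1 to −0.029 after quantile normalization and Ifnar2 to 0.0232 with median centring and 0.0231 with array weights. With mice left out, Ifnar1 ran from −0.0217 to 0.0586, Ifnar2 from −0.047 to 0.0558, Ifnb1 from −0.0249 to 0.0602, Dhx58 from −0.0051 to 0.0652 and Ifnlr1 from −0.1241 to 0.0102. At 7 mice a group, differences of this size are close to the SE of single genes.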

Other observations

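Lymphocyte markers did not move as one. Of 17 NK and T cell markers 10 had a higher mean in HFM. Cd3g, a chain of the T cell receptor complex, ran from 2.98 to 3.27 (median 3.09) in HFM and from 2.77 to 3.12 (median 2.88) in HFS, and was called higher at 0.22 ± 0.07 (limma, unadjusted p = 0.00563, adjusted p = 0.714). Prf1, the pore-forming protein perforin of cytotoxic cells, ran from 3.93 to 4.36 (median 4.25) in HFM and from 4.26 to 4.51 (median 4.38) in HFS, and was called lower at −0.16 ± 0.07 (unadjusted p = 0.0364). Of 4 B cell markers, Cd79a was called lower at −0.24 ± 0.10 and Fcmr higher at 0.15 ± 0.06. All of these probe sets were dim, with means below 5, and none passed an adjusted p of 0.05.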
